A study of Homo sapiens with 3 samples.

Results

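RNA from Rh-30 cells treated with siRNA against PAX3-FOXO1 (siPF) was compared directly with RNA from Rh-30 cells treated with siRNA against B7-H3 (siB7-H3), array against array. A probe set, the group of short probes that reads 1 transcript on the array, was kept where the higher of both intensities reached 200. This left 19898 of 54613 probe sets without array controls, which stood for 9657 of 19775 named genes. The value used throughout is the log2 ratio of the siPF intensity over the siB7-H3 intensity, so that positive values mean higher on the siPF array and negative values mean higher on the siB7-H3 array.

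Rh-30 is an established cell line of fusion-positive alveolar rhabdomyosarcoma (ARMS), in which PAX3-FOXO1 is expressed. The 3 conditions were a control siRNA (siCont), siPF directed at the fusion transcript, and siB7-H3, each used at 5 nM with Lipofectamine RNAiMAX, and total RNA was taken after 24 h. Each condition was 1 Affymetrix U133 Plus 2.0 array of 1 cell line, and each target was reached with 1 siRNA, so effects on its target and off-target effects of an siRNA cannot be told apart. The siCont array served only to place a gene, that is, to show which knockdown array lay away from the control level, and both knockdown arrays share it. Since no condition had a replicate, no error and no test could be given. The effect of an siRNA and the difference between any 2 arrays cannot be told apart, and in bulk RNA neither can fewer cells of a kind and less RNA per cell.

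PAX3-FOXO1 joins the DNA-binding part of PAX3, a regulator of muscle precursors, to the activating part of FOXO1, and drives a program in which cells express myogenic factors without completing muscle differentiation. B7-H3, encoded by CD276, is a surface protein of the B7 family of immune ligands that is found on many solid tumors. Myogenic differentiation runs from the basic helix-loop-helix factors MYF5 and MYOD1 through MYOG and the MEF2 factors to genes of the contractile apparatus and the neuromuscular junction.

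Each of the 3 arrays had a mean of 500.1 after the lowest and highest 2% of probe sets were left out, an equality that the authors' scaling may have set, and 35.0% to 35.3% of probe sets reached 200. The 18 hybridization controls at the minimum had a median log2 ratio of 0.01 between the knockdown arrays. Against siCont their median was 0.23 on the siPF array and 0.23 on the siB7-H3 array, where all probe sets at the minimum had 0.02 and 0.02, and this touches each placement by siCont. The 14 poly-A spike controls, which are added to the RNA before labeling, had a median of -0.17 with a range from -0.42 to 0.14. The log2 ratio of 3' over 5' probe sets lay between -0.06 and 0.03 for ACTB and between -0.14 and -0.09 for GAPDH on the 3 arrays. Of 14 measured markers of rhabdomyosarcoma cells, 11 reached the minimum, including MYOD1, DES, MYCN and FGFR4, whereas TFAP2B, CDH3 and EYA2 did not. Of 47 measured genes of other cell types, 4 reached it, namely COL1A1, COL3A1, THY1 and PECAM1, and none of these was past 2-fold. The summed intensity of the 47 genes was 8668 on the siCont array, 10289 on the siPF array and 8726 on the siB7-H3 array, and that of the 43 genes under the minimum was 1340, 1305 and 1307. No gene of the list was listed at exactly 0.

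The targets of both siRNAs were examined first. CD276 had an intensity of 1486 on the siCont array, 1381 on the siPF array and 362 on the siB7-H3 array, a log2 ratio of 1.93. The siPF array thus lay next to siCont and the siB7-H3 array alone lay apart. A second CD276 probe set read 460, 349 and 11.4, a siB7-H3 value too low for a usable ratio, and the remaining one stayed under the minimum at 54.4, 77.6 and 83.6. FOXO1, whose 3' part is included in the fusion transcript, had an intensity of 678 on the siCont array, 249 on the siPF array and 650.0 on the siB7-H3 array, a log2 ratio of -1.38. A second FOXO1 probe set read 358, 88.4 and 373. Both probe sets were low on the siPF array only. PAX3, which supplies the 5' part, read 381, 329 and 398, with a log2 ratio of -0.27, and whether the FOXO1 or PAX3 probe sets read the fusion transcript was not tested.

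Few genes differed by 2-fold or more between the knockdown arrays. Of 9657 genes, 66 (0.683%) were at least 2-fold higher on the siPF array and 65 (0.673%) were at least 2-fold higher on the siB7-H3 array, 131 (1.36%) in all. By probe set, 145 (0.729%) and 142 (0.714%) of 19898 were past 2-fold in these directions, 287 (1.44%) together. Only 8 probe sets were past 4-fold higher with siPF and 10 past 4-fold higher with siB7-H3. The median log2 ratio over the genes was 0.0024, the middle 50% of genes lay between -0.15 and 0.17, and 93.6% were within 1.5-fold. The share past 2-fold depended on the level, taken as the geometric mean over both arrays. It was 12.9% of the 704 probe sets under 200, which had reached the minimum on 1 array only. It was 1.57% of probe sets between 200 and 400, and 0.405% of the 3213 probe sets at 3000 or more. Of the 287 probe sets past 2-fold, 155 reached 200 on both arrays and 132 on 1 array only. At the edge of the level minimum, HSF1 (184 with siPF and 199.9 with siB7-H3), OTUD7B (173 and 199.96) and ARSK (199.97 and 179) lay just outside, and HROB (200.01 and 157), ATXN7 (179 and 200.07) and 1 probe set with no gene name (200.02 and 173) lay just inside.

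**Figure D1:**
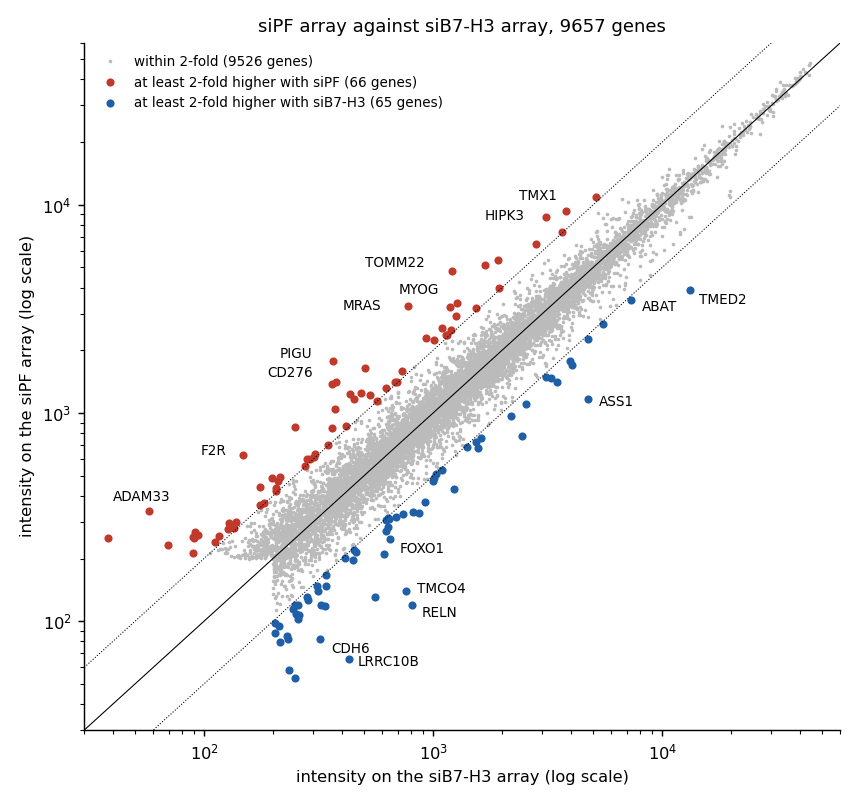
Intensity of each of the 9657 genes on the siPF array (vertical, log scale) against the siB7-H3 array (horizontal, log scale), with 1 point per gene, a solid line at equal values and dotted lines at 2-fold. The 66 genes higher with siPF and the 65 higher with siB7-H3 are in color, and most other genes lie close to the line, more tightly so at high intensity.

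The siCont level showed which knockdown array lay apart. A gene past 2-fold was placed with one array where the other lay within 0.5 log2 of siCont. Of the 66 genes higher with siPF, 35 were placed with siB7-H3, where the siB7-H3 array was low and the siPF array was near siCont, 17 with siPF, 8 had the 2 arrays on opposite sides of siCont, and 6 had both on one side. Of the 65 genes higher with siB7-H3, 47 were placed with siPF, 7 with siB7-H3, 8 lay on opposite sides and 3 on one side. In 82 of the 106 genes with a single array apart, that array was the lower one. Among genes that reached 200 on both arrays the pattern of counts was alike, with 28 of 47 placed with siB7-H3 in the first direction and 27 of 37 placed with siPF in the second.

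In 35 of the 66 genes higher with siPF the siB7-H3 array alone lay apart, and TOMM22, PIGU, MAT2B and ZMPSTE24 were among them. TOMM22, a receptor of the import complex in the outer mitochondrial membrane, read 4493 on the siCont array, 4814 on the siPF array and 1209 on the siB7-H3 array, a log2 ratio of 1.99. Its second probe set read 3672, 3892 and 529, a log2 ratio of 2.88. The siCont and siPF arrays were close to each other and both lay above siB7-H3 in each probe set. PIGU, a subunit of the transamidase that attaches glycosylphosphatidylinositol (GPI) anchors to proteins, read 1412, 1772 and 367, a log2 ratio of 2.27. MAT2B, the regulatory subunit of methionine adenosyltransferase, read 4616, 5145 and 1693, a log2 ratio of 1.60, and its second probe set had 1.82. ZMPSTE24, the protease that matures lamin A, read 5588, 5425 and 1926, a log2 ratio of 1.49. All 4 genes were lowest with siB7-H3 and within 0.5 log2 between siCont and siPF.

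The endoplasmic reticulum protein TMX1 read 10584, 9333 and 3815 on the siCont, siPF and siB7-H3 arrays, a log2 ratio of 1.29, with 1.41 for its second probe set. BECN1, which acts at the start of autophagy, read 2763, 2555 and 1096, a log2 ratio of 1.22, and its second probe set had 1.05. VMA21, an assembly factor of the vacuolar proton pump, read 6602, 6487 and 2805, a log2 ratio of 1.21. Each again stood at the siCont level on the siPF array. CERK (ceramide kinase, log2 ratio 1.46), TXNDC16 (1.71), PLEKHB2 (1.21), FBXO21 (1.04), the mitochondrial magnesium channel MRS2 (1.05), the Arp2/3 subunit ARPC1A (1.02) and LEF1, a transcription factor of Wnt signaling (1.06), were placed in the same way. The medians over their pathways were near 0. Of 27 genes of mitochondrial import at the minimum only TOMM22 was past 2-fold, beside 1.36% of all genes, with a median of -0.05 and a lowest value of -0.79. Of 25 genes of GPI anchoring only PIGU was, the median of the 23 genes with a mean level of at least 200 was -0.02, and the lowest value was -0.42. Of 32 autophagy genes only BECN1 was and the median of 31 was 0.04.

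In other genes higher on the siPF array, that array lay above siCont. F2R, the thrombin receptor, read 162 on the siCont array, 626 on the siPF array and 149 on the siB7-H3 array, a log2 ratio of 2.07. This probe set is of the type that can bind several transcripts, and only its siPF value reached the minimum. TNFRSF19, a receptor of the tumor necrosis factor family, read 531, 1402 and 378, a log2 ratio of 1.89. MYCL, a member of the MYC family, read 568, 1228 and 434, a log2 ratio of 1.50. In each of these genes the siCont and siB7-H3 arrays were within 0.5 log2 of each other in the probe set given. Their other probe sets were under the minimum. That of F2R read 175, 168 and 130, and those of TNFRSF19 read 197, 189 and 123, and 123, 101 and 88.6. In these the siPF array was not above siCont, whereas that of MYCL read 123, 168 and 93.8. ELAVL2, a neuronal RNA-binding protein, read 774, 2286 and 929, a log2 ratio of 1.30. Its second probe set read 251, 238 and 177, a log2 ratio of 0.43, with siPF not above siCont. TGFB2 read 99.6, 259 and 94.5, a log2 ratio of 1.37 with values under 100 set to 100, and only its siPF value reached the minimum. The other TGFB2 probe sets were under the minimum, with siPF values of 65.2 or less. ADAM33, a metalloprotease, read 12.8, 337 and 57.3, a log2 ratio of 1.75 with the same floor, on a probe set of the type that can bind several transcripts, and only its siPF value reached the minimum.

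Some genes lay on both sides of siCont. MRAS, a small GTPase of the Ras family, read 1287 on the siCont array, 3250 on the siPF array and 777 on the siB7-H3 array, a log2 ratio of 2.07, with 1.06 in its second probe set. The ligand WNT9A read 472, 853 and 249, a log2 ratio of 1.77, and the growth factor FGF2 read 314, 485 and 198, a log2 ratio of 1.29. The ubiquitin ligase RNF144A (1.49) and PIK3R3, a regulatory subunit of phosphoinositide 3-kinase (1.08), were placed likewise. In all 5 genes the siCont value lay between the knockdown arrays and over 0.5 log2 from each.

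**Figure D2:**
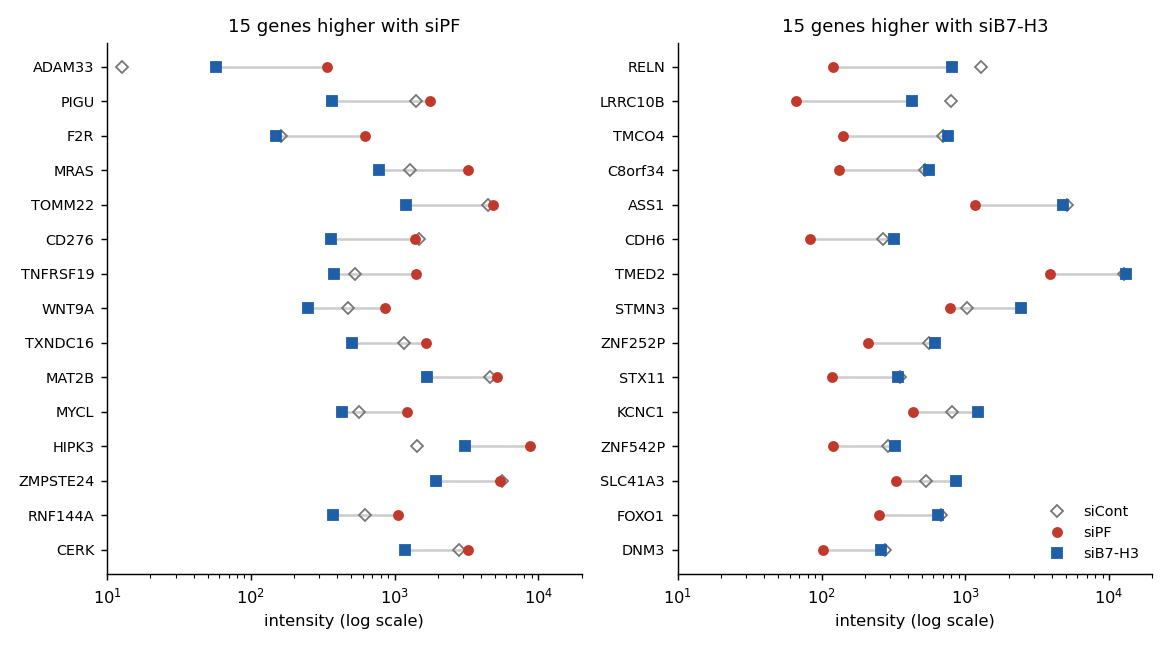
Intensity (log scale) on the siCont, siPF and siB7-H3 arrays of the 15 genes furthest apart in each direction once values under 100 were set to 100, ordered by the log2 ratio without that floor, with 1 symbol per array and a gray line joining the knockdown arrays. On the left, PIGU, TOMM22, CD276, MAT2B and ZMPSTE24 have the siCont symbol next to siPF, and on the right most genes have it next to siB7-H3.

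Genes lower on the siPF array were led by RELN and TMCO4. RELN, a large secreted protein of neuronal migration, read 1287 on the siCont array, 120.0 on the siPF array and 811 on the siB7-H3 array, a log2 ratio of -2.76. LRRC10B read 792, 65.9 and 428, a log2 ratio of -2.10 with values under 100 set to 100. In both genes the siB7-H3 array was also below siCont, though far above siPF. ASS1, the argininosuccinate synthase of arginine synthesis, read 5095, 1172 and 4762, a log2 ratio of -2.02. TMCO4 read 696, 140 and 759, a log2 ratio of -2.44, with -2.38 in its second probe set. CDH6, a cadherin of cell adhesion, read 266, 82.5 and 321, a log2 ratio of -1.96 (-1.68 with that floor), and 3 other CDH6 probe sets at the minimum had -1.73 to -1.95. For these 3 genes the siCont and siB7-H3 arrays were close together.

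TMED2, a cargo receptor of vesicles between the endoplasmic reticulum and the Golgi, read 12636 on the siCont array, 3896 on the siPF array and 13191 on the siB7-H3 array, a log2 ratio of -1.76, and 2 further probe sets had -1.95 and -1.96. All 3 TMED2 probe sets were low with siPF only. THOC7, a subunit of the complex that couples transcription to mRNA export, read 4366, 1701 and 4028, a log2 ratio of -1.24. POU4F1, a transcription factor of sensory neurons, read 1542, 676 and 1576, a log2 ratio of -1.22, and its second probe set had -1.32. The peptidase MME (neprilysin) read 2721, 1102 and 2550, a log2 ratio of -1.21, with a second probe set at -0.62. These 3 genes also stood at the siCont level on the siB7-H3 array. DIAPH3, a formin that nucleates actin filaments, read 2469, 970.0 and 2192, a log2 ratio of -1.18, with -1.14 in its second probe set. ABAT, which breaks down the transmitter GABA, read 7761, 3487 and 7343, a log2 ratio of -1.07. ARRB1, an arrestin, read 3351, 1477 and 3264, a log2 ratio of -1.14, and of its 6 other probe sets 1 was past 2-fold and all were negative. C8orf34 (-2.09), the syntaxin STX11 (-1.52), the dynamin DNM3 (-1.34), the claudin-domain protein CLDND1 (-1.16) and the heme enzyme CPOX (-1.06) were also placed with siPF. So were the hypoxia factor EPAS1 (-1.16), the ephrin receptors EPHB1 (-1.04) and EPHA4 (-1.05) and the pseudogenes ZNF252P (-1.55) and ZNF542P (-1.44). The other DNM3 probe sets, under the minimum, read 171, 176 and 142, and 65.3, 76.8 and 45.8, with siPF above siCont. Of the 3 other EPHA4 probe sets at the minimum, 1 read 147, 207 and 239, and the rest had siPF below siCont.

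In a smaller set the siB7-H3 array itself lay above siCont. STMN3, a stathmin that acts on microtubules, read 1033 on the siCont array, 778 on the siPF array and 2446 on the siB7-H3 array, a log2 ratio of -1.65. The guidance protein SEMA6A read 643, 473 and 1001, a log2 ratio of -1.08. Both were placed with siB7-H3, since siPF was within 0.5 log2 of siCont. The potassium channel KCNC1 read 813, 431 and 1233, a log2 ratio of -1.52, and the magnesium transporter SLC41A3 had -1.39, both with siCont in between.

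Probe sets of one gene share both arrays and are no replicates of a condition, but they are different probes. Of the 131 genes past 2-fold, 51 had another probe set at the minimum and 80 did not. In 28 of the 51 at least 1 other probe set was past 2-fold the same way, and in 21 all others were, 10 higher with siPF and 11 higher with siB7-H3. Of the 74 other probe sets, 31 were past 2-fold the same way, 36 had the same sign within 2-fold, and 7 had the opposite sign. TGFBR1, a receptor kinase for TGF-beta, was among the last: it read 7985, 10861 and 5163 on the siCont, siPF and siB7-H3 arrays in its brightest probe set, a log2 ratio of 1.07, whereas the other probe sets had -0.36 and 1.21.

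**Figure D3:**
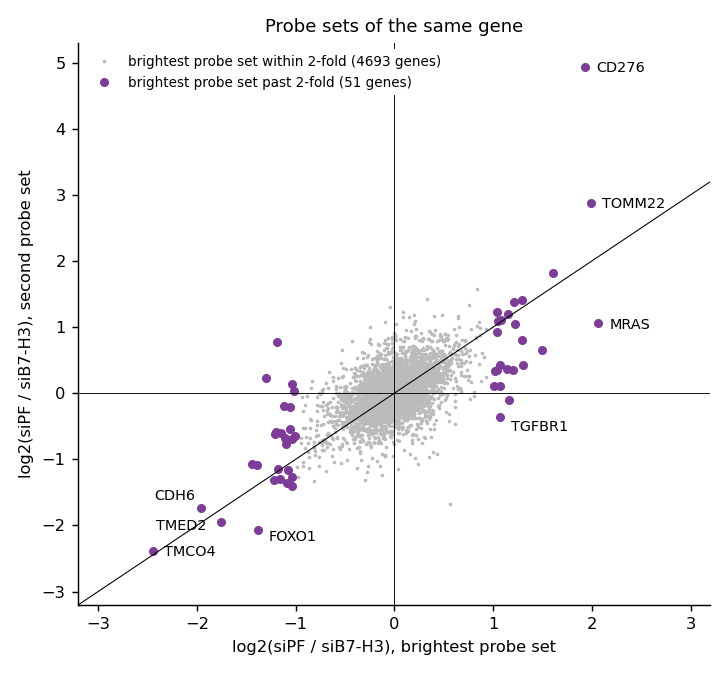
Log2 ratio of siPF over siB7-H3 of the second brightest probe set of a gene (vertical) against that of its brightest (horizontal), with 1 point per gene and a line at equal values. Of the 51 genes whose brightest probe set was past 2-fold, CD276, TOMM22, TMED2, TMCO4 and CDH6 lie far out on both axes, where the vertical position of CD276 at 4.94 rests on the siB7-H3 intensity of 11.4, and 6 genes, TGFBR1 among them, lie on the other side of zero on the vertical axis.

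Muscle differentiation was read from the regulators downward. MYOG, the myogenic factor that opens terminal differentiation, read 605 on the siCont array, 3386 on the siPF array and 1269 on the siB7-H3 array, a log2 ratio of 1.42. Both knockdown arrays lay above siCont, and siPF lay well above siB7-H3. CKB, the brain-type creatine kinase, followed the same order with 198, 1244 and 487, a log2 ratio of 1.35. So did the kinase HIPK3 with 1427, 8755 and 3104, a log2 ratio of 1.50 (0.65 in its second probe set). The earlier factors pointed the other way within 2-fold. MYOD1 read 11471, 8688 and 13046, a log2 ratio of -0.59, and MYF5 read 415, 213 and 342, a log2 ratio of -0.68. Of 30 myogenic regulators at the minimum, 17 were above 0 and 13 below, with a median of 0.07. Only MYOG was past 2-fold, 3.33% of them beside 1.36% of all genes. Among the others, MEF2C had a log2 ratio of 0.43, the fusion peptide gene MYMX 0.50, the cofactor VGLL2 0.57 and its relative VGLL3 -0.73.

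None of the 24 contractile and Z-disc genes at the minimum was past 2-fold, beside 1.36% of all genes, but most were somewhat higher on the siPF array. Of the 23 with a mean level of at least 200, 21 were above 0 and 2 below, with a median of 0.24 and a range from -0.05 to 0.87. Over all 9463 genes at that level, 4777 were above 0 and 4686 below, with a median of 0.0018. MYL4, a light chain of embryonic muscle myosin, read 724, 1542 and 845 on the siCont, siPF and siB7-H3 arrays, a log2 ratio of 0.87. The Z-disc protein SYNPO2L read 459, 1252 and 706, a log2 ratio of 0.83, and KLHL41, a sarcomere assembly factor, read 1953, 4381 and 2680, a log2 ratio of 0.71. In these genes both knockdown arrays lay above siCont, with siPF highest, as for MYOG. MYL1 had a log2 ratio of 0.77, slow troponin I (TNNI1) 0.58, desmin (DES) 0.42 and cardiac actin (ACTC1) 0.24, while PDLIM5 had -0.03 and ANKRD1 -0.05. All 9 muscle myosin heavy chain genes of the list stayed under the minimum on both arrays. MYH3, the embryonic form, read 5.29, 36.3 and 87.4, and levels this low give no usable ratio. Of the nonmuscle heavy chains, MYH9 had a log2 ratio of 0.24, MYH10 -0.01 and MYH14 -0.67. At the neuromuscular junction, 7 of 8 genes were above 0, with a median of 0.34. CHRND, the delta subunit of the acetylcholine receptor, read 471, 868 and 579, a log2 ratio of 0.58, AGRN had 0.50 and LRP4 0.51, while CHRNA1 had -0.14. The calcium release channels differed, with 0.67 for RYR1 and -0.85 for RYR3. The whole list of excitation, calcium and membrane genes of muscle had 19 genes above 0 and 10 below, with a median of 0.13. Its other parts had medians near 0, at 0.01 for calcium release and reuptake, 0.07 for the dystrophin complex and 0.03 for energy supply. Of the 29 genes of the list at the minimum only CKB, of the energy supply part, was past 2-fold (3.45%, beside 1.36% of all genes).

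The promoters of 3 of these genes are shown because MYOG, CHRND and CKB were ordered alike on the arrays and myogenic and MEF2 factors are known to bind the short letters searched for. Each covers 250 bases before to 50 bases after the start in RefSeq on GRCh38.p14, read 5′ to 3′ on the strand of the gene. Capitals mark CANNTG, the E-box letters, and the MEF2-type motif of CTA, 4 bases of any kind and TAG. Both read the same in form on either strand, and both strands were searched. Only this form of MEF2 site was searched for, so a promoter without a match may hold another form. The MYOG promoter (chr1:203085963-203086262, minus strand) holds 1 CANNTG, the CHRND promoter (chr2:232525910-232526209, plus strand) holds 2, of which 1 is CACCTG, and the CKB promoter (chr14:103522781-103523080, minus strand) holds none but has 1 MEF2-type motif.
MYOG: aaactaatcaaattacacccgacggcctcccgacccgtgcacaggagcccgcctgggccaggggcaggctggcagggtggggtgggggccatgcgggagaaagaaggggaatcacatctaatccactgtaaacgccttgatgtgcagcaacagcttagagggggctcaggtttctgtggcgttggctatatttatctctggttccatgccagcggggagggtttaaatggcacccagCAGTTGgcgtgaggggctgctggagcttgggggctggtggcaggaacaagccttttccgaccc
CHRND: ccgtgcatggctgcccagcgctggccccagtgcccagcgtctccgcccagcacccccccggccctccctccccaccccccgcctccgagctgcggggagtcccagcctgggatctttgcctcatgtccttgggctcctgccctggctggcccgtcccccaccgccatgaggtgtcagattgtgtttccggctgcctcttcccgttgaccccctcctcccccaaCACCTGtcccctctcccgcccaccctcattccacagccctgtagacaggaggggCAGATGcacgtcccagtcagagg
CKB: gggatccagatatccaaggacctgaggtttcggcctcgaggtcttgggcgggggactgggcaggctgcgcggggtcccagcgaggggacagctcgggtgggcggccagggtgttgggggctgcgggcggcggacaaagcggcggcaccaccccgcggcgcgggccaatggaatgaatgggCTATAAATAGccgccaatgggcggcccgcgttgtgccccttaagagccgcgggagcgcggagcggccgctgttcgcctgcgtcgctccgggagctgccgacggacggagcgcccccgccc

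CANNTG was about as frequent among the genes past 2-fold as among all genes at the minimum. It was present in 33 of 53 promoters (62.3%) of the genes higher with siPF, in 29 of 49 (59.2%) of the genes higher with siB7-H3, and in 58.7% of 8098 promoters of genes at the minimum. It was present in 17 of 19 promoters (89.5%) of the contractile and Z-disc genes at the minimum, and in 68.9% of all 27305 promoters. CAGCTG, a form within CANNTG, was present in 15.1% and 26.5% of the promoters of the genes higher with siPF and with siB7-H3, and in 16.7% of those at the minimum. CACCTG, another such form, was present in 18.9%, 10.2% and 16.3%. The MEF2-type motif, chosen after values were seen, was present in 3 of 53 (5.66%), 0 of 49 and 2.07%, and in 4 of 19 (21.1%) of the contractile genes. A match is a description of the letters in the window and not a binding site.

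The list of reported PAX3-FOXO1 targets, written from general knowledge with earlier results of these arrays known, leaned to lower values on the siPF array. Of 31 genes at the minimum, 9 were above 0 and 22 below, with a median of -0.42, and 5 (16.1%, beside 1.36% of all genes) were past 2-fold, namely RELN, ASS1, ABAT and EPHA4 lower with siPF and MYCL higher. Under a level minimum of 400 the median was -0.20. MET, the receptor of hepatocyte growth factor, read 7850, 4605 and 8852 on the siCont, siPF and siB7-H3 arrays, a log2 ratio of -0.94. The receptor kinase ALK read 334, 207 and 374, a log2 ratio of -0.85. The cell cycle protein SKP2 read 21340, 11625 and 19779, a log2 ratio of -0.77. In all 3 the siPF array was the lowest. NRCAM had a log2 ratio of -0.82 and FGFR4 -0.45, while MYCN had -0.11, the cell cycle gene CCND2 0.15 and PIPOX 0.57. CXCR4, the chemokine receptor, read 760, 512 and 682, a log2 ratio of -0.41, and its other probe sets had -0.75 and -0.34.

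In the list of fibroblast growth factor (FGF) signaling and receptor kinase feedback, 15 of 18 genes with a mean level of at least 200 were below 0, with a median of -0.37. Of 19 genes at the minimum 3 (15.8%, beside 1.36% of all genes) were past 2-fold, DUSP6 and FGF8 lower with siPF and FGF2 higher. DUSP6, a phosphatase that switches off ERK kinases, read 810, 532 and 1089 on the siCont, siPF and siB7-H3 arrays, a log2 ratio of -1.03. The inhibitor SPRY4 had a log2 ratio of -0.93, and SPRY1 read 691, 462 and 811, a log2 ratio of -0.81. All 3 were highest with siB7-H3 and lowest with siPF. The factor ETV4 had a log2 ratio of -0.72, while DUSP4 had 0.49. Among the ligands, FGF8 read 212, 82.3 and 232, a log2 ratio of -1.22 with values under 100 set to 100, and FGF2 ran opposite, as given above.

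Lists of other signals had medians between -0.14 and 0.31. Of 14 Notch genes 11 were above 0, with a median of 0.31. The target HES1 read 423, 564 and 378 on the siCont, siPF and siB7-H3 arrays, a log2 ratio of 0.58, HEY1 had 0.56, HES6 0.56 and RFNG, which modifies the receptors, 0.97. Of 8 Hedgehog genes 7 were above 0, with a median of 0.18, and GAS1 was the exception at -0.72. The Wnt list had a median of -0.09 over 16 genes, the TGF-beta and BMP list -0.03 over 20 genes and the insulin-like growth factor list -0.14 over 9 genes. At the minimum, LEF1 was past 2-fold among 16 Wnt genes (6.25%, beside 1.36% of all genes). TGFB2 and TGFBR1 were past 2-fold among 21 TGF-beta and BMP genes (9.52%). Each was higher with siPF, and no gene of the Notch, Hedgehog and insulin-like growth factor lists was past 2-fold.

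Cholesterol synthesis was lower with siPF than with siB7-H3 in 12 of 15 genes, with a median of -0.35, where 4686 of all 9463 genes were below 0. Of the 15 genes 2 (13.3%, beside 1.36% of all genes) were past 2-fold, MSMO1 and HMGCS1. MSMO1, a demethylase of the late pathway, read 2299 on the siCont array, 1403 on the siPF array and 3473 on the siB7-H3 array, a log2 ratio of -1.31. HMGCS1, which makes the precursor HMG-CoA, read 2133, 1490 and 3098, a log2 ratio of -1.06. In both, the siCont level lay between the knockdown arrays in the probe set given. A second HMGCS1 probe set read 1518, 1446 and 2098, a log2 ratio of -0.54, with siPF close to siCont. SQLE had a log2 ratio of -0.57 and IDI1 -0.44, while SREBF2, the factor that regulates the pathway, had 0.01. The 9 genes of fatty acid synthesis had a median of -0.02.

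Cell cycle genes were slightly higher on the siPF array, and none was past 2-fold, beside 1.36% of all genes. Over all 9463 genes with a mean level of at least 200, 4777 were above 0 and 4686 below. Of 60 genes of G1/S and DNA replication 44 were above 0, with a median of 0.15, and of 70 genes of G2/M and mitosis 57 were, with a median of 0.13 and a highest value of 0.49. The largest values belonged to regulators of S phase entry. E2F8 read 538, 909 and 456 on the siCont, siPF and siB7-H3 arrays, a log2 ratio of 0.996, CDK2 read 3731, 4248 and 2373, a log2 ratio of 0.84, and CDT1 read 1804, 2034 and 1206, a log2 ratio of 0.75. RBL2, a relative of the retinoblastoma protein, had -0.57 and CCND1 -0.48. The 41 housekeeping and ribosomal genes ranged from -0.22 to 0.22, with a median of 0.04.

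Of 52 chemotaxis and motility genes 22 were above 0 and 30 below, with a median of -0.07. Of them 3 (5.77%, beside 1.36% of all genes) were past 2-fold, CCL2 and ARPC1A higher with siPF and DIAPH3 lower. The chemokine CCL2 read 142, 493 and 214 on the siCont, siPF and siB7-H3 arrays, a log2 ratio of 1.20, and CXCL8 had -0.86. STYK1, a kinase-like receptor, read 221, 92.2 and 76.8, so both knockdown arrays lay under the minimum and it gave no ratio here. Of 30 B7 and immune ligand genes at the minimum only CD276 (3.33%) was past 2-fold, and CD274 (PD-L1) read 304, 318 and 256, a log2 ratio of 0.31. The 29 interferon-stimulated genes had a median of 0.04 and none past 2-fold. The 52 matrix and adhesion genes had a median of -0.02, with COL4A1 at -0.86 and the plasminogen activator PLAT at -0.89, and of 56 at the minimum 2 (3.57%) were past 2-fold, ADAM33 higher with siPF and CDH6 lower. Of 21 unfolded protein response genes 18 were below 0, with a median of -0.13 and a lowest value of -0.43 for XBP1. The medians were 0.02 for 24 p53 target and cell cycle exit genes, and 0.02 for 35 hypoxia and glycolysis genes. Of 17 neuronal genes, with a median of -0.04, 4 (23.5%, beside 1.36% of all genes) were past 2-fold. RELN, STMN3 and KCNC1 were lower with siPF than with siB7-H3, and ELAVL2 was higher. RELN is also in the list of reported PAX3-FOXO1 targets.

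**Figure D4:**
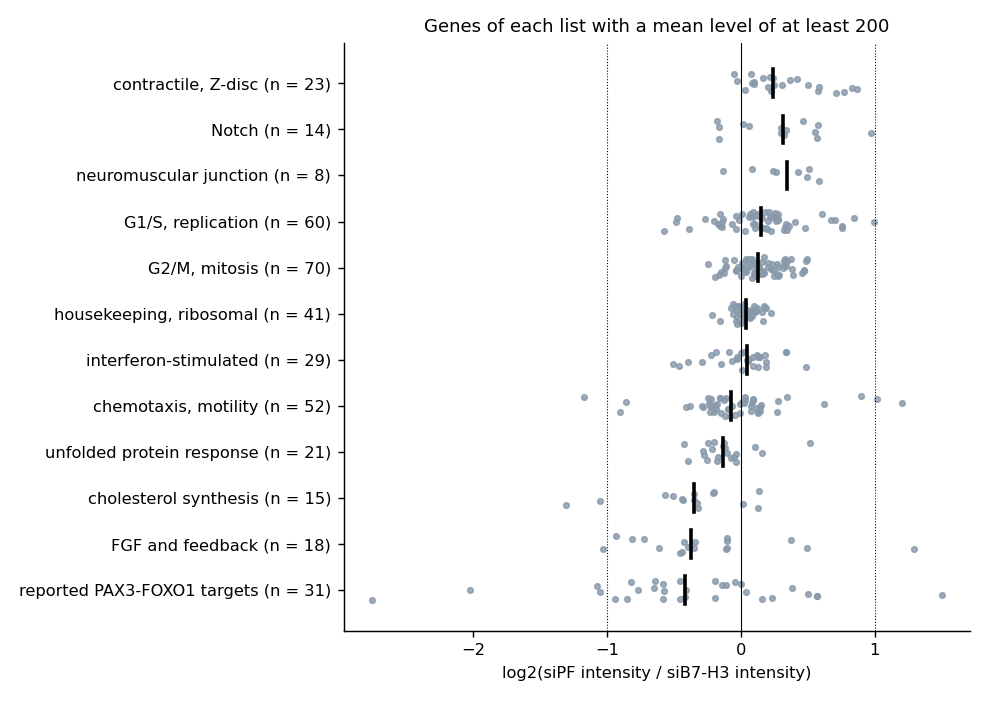
Log2 ratio of siPF over siB7-H3 (horizontal) of the genes in 12 lists and sublists, with 1 point per gene with a mean level of at least 200, a black bar at each median and dotted lines at 2-fold. Medians run from -0.42 for reported PAX3-FOXO1 targets to 0.34 for genes of the neuromuscular junction, and most points lie within 2-fold.

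Zinc finger genes formed a group that was noticed after the values were seen. Genes whose symbols begin with ZNF and a number are named for zinc finger proteins, many of which bind DNA, and 12 of the 307 at the minimum are symbols of pseudogenes or antisense transcripts. Of these 307 ZNF genes at the minimum, 11 (3.58%) were at least 2-fold higher on the siB7-H3 array and 1, ZNF219, was higher on the siPF array, beside 0.578% of 9350 other genes higher on the siB7-H3 array. Without the 12 symbols, 9 of 295 (3.05%) were higher on the siB7-H3 array. ZNF736 read 864, 329 and 738 on the siCont, siPF and siB7-H3 arrays, a log2 ratio of -1.17, ZNF880 read 671, 307 and 624, a log2 ratio of -1.02, and ZNF92 read 1114, 687 and 1413, a log2 ratio of -1.04. In each the siPF array was the lowest. ZNF219 read 161, 250.3 and 38.0, a log2 ratio of 1.32 with values under 100 set to 100. Of 292 ZNF genes with a mean level of at least 200, 202 (69.2%) were below 0, with a median of -0.12, beside 48.9% and 0.0054 for other genes. The share below 0 was 62.5% at mean levels of 200 to 400, 71.1% at 400 to 1000 and 75% at 1000 or more, against 42.8%, 45.6% and 51.9% of other genes. Of 114 ZNF genes with a second probe set at the minimum, that probe set was below 0 in 75, beside 2309 of 4744 genes of all kinds. Many of these genes have close paralogs, so probe sets may share transcripts.

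**Figure D5:**
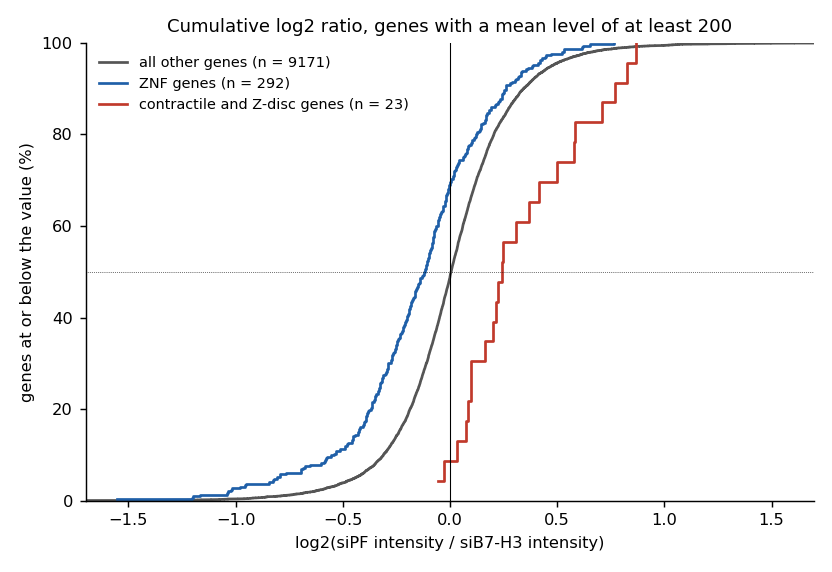
Share of genes (vertical, percent) at or below each log2 ratio of siPF over siB7-H3 (horizontal) for 292 ZNF genes, 23 contractile and Z-disc genes and all 9171 genes with no ZNF symbol, at a mean level of at least 200. The ZNF curve lies to the left of the other genes and the contractile curve to the right, with medians of -0.12, 0.24 and 0.0054.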

How the data were processed

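RNA of 3 Rh-30 cultures was measured, 1 array each. Per the labels, Affymetrix Expression Console 1.4.1 was used by the authors to make the deposited intensity values, which are linear and 1 per probe set. How probes were summarized is not given in the sources used here. From these, log2 ratios of the siPF over the siB7-H3 intensity were computed with Python 3.11.15, numpy 2.4.6 and pandas 2.3.3, with no floor and no pseudocount, and 2-fold was the size counted. Of 54613 probe sets, 41091 were named with 1 gene by the platform annotation, 1801 with several and 11721 with none. A gene was represented by its probe set of highest mean log2 intensity over both knockdown arrays. No test was made, and the single array per condition limits the precision. Detection calls were not used.

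The genes named were the 15 furthest apart in each direction with values under 100 set to 100, the 10 furthest apart in each direction among genes of at least 1000 on both arrays, genes with all of several probe sets past 2-fold, members of the lists past 2-fold, and PAX3, FOXO1, CD276, CXCR4, STYK1, MYOG and the MYH genes. Further list members and ZNF genes were chosen after their values were seen. Of 1149 genes in 21 lists, 1071 were measured. The comparison, the lists and the rules were chosen with earlier results of these data known. A list is described by its counts and by its median over genes whose geometric mean intensity on both arrays was at least 200. Promoter sequences came from RefSeq (GRCh38.p14). The code was tested on simulated data. Alternatives were other level minimums, a floor, centring, quantile normalization, other probe set rules and a 3-fold size.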

Additional observations from a re-analysis of the deposited data

How the results depend on the processing

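The counts depended mainly on the level minimum and the size counted. With a minimum of 100, 425 and 379 probe sets and 151 and 146 genes were past 2-fold, higher with siPF and with siB7-H3. With a minimum of 400 these were 87 and 82 probe sets, and 42 genes higher with siB7-H3. With 200 required on both arrays they were 83 and 72 probe sets, and 37 genes higher with siB7-H3. At 3-fold, 21 and 23 probe sets and 12 and 10 genes remained past the size counted. Without probe sets of the _x_at and _s_at types, which can bind several transcripts, 85 probe sets were higher with siPF, and TGFBR1 reversed to -0.36, as another of its probe sets then stood for it. Under that setting 12 of 42 counts of list members past 2-fold moved, and 64 of 80 named genes still had a value. MYOG, FOXO1, TOMM22, BECN1, ASS1, LRRC10B, LEF1, MME, CCL2, FGF2, FGF8 and MYH9 have only _s_at probe sets at the minimum and dropped out. So did ADAM33, F2R and MYH14, which have only _x_at probe sets there. Centring each array on its median gave 60 and 70 genes, quantile normalization 64 and 69, and taking each gene's median probe set value 63 and 58. ARPC1A came to 0.996 after centring. With the median over probe sets, ARRB1 (-0.83), ELAVL2 (0.86), DUSP6 (-0.91), HMGCS1 (-0.80) and MME (-0.91) were within 2-fold, and without the _x_at and _s_at types so was ARRB1 (-0.60). The cause was not tested where the construction of the alternative does not show it. No paired analysis was possible because each condition has 1 array. For the same reason no array could be left out.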
